A study of Mus musculus with 12 samples.

Results

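The MAP kinase and MAP4 kinase genes of the nCounter mouse immune panel were taken as the endogenous genes whose symbol begins with Mapk or Map4k. The rule took in 7 of 545 endogenous genes, and 6 of them are described: the MAP kinases Mapk11 and Mapk14, the MAP kinase-activated kinase Mapkapk2, and the MAP4 kinases Map4k1, Map4k2 and Map4k4. They were measured in hippocampal microglia of male Balbc mice raised under control conditions, aged postnatal day 28 (P28, n = 6) and postnatal day 14 (P14, n = 6), with every pup from another litter. Cells were isolated on a Percoll gradient and by flow sorting, and amplified cDNA was counted with fluorescent barcodes, without sequencing. The comparison asks which of these genes differ between the ages.

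MAP kinase signalling is a relay in which an upstream kinase phosphorylates a MAP kinase kinase kinase or its partners, the signal passes through a MAP kinase kinase, and the MAP kinase at the end phosphorylates transcription factors and further kinases. Mapk14 and Mapk11 encode the alpha and beta forms of p38, stress kinases that act in microglia downstream of Toll-like and cytokine receptors, and Mapkapk2 is a substrate of p38 that stabilises cytokine mRNAs. MAP4 kinases sit at the top of the relay and feed mainly the JNK branch. All these kinases are switched by phosphorylation, which an mRNA count does not measure.

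Levels are raw barcode counts scaled to 6 reference genes, so a scaled count compares samples for 1 probe and not 1 gene with another. Each lane has a background threshold, the average of its negative probes plus 2 SD, and a gene counted as present if 40% or more of the 12 samples were above it. By that rule 5 of the 6 genes were present, and Mapk11 was not. Differences are given as log2 fold changes (P28 over P14) ± SE, fitted by edgeR's quasi-likelihood method, and a gene passed at an FDR of 0.05 over the 366 present genes.

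None of the 5 present genes passed the test with all 12 samples, while P14 samples 4 and 5 held the 2 lowest P14 values for 4 of the 5. With those samples left out, Map4k1, Map4k4 and Mapk14 were called lower at P28 and none of the 5 higher; the calls of Map4k4 and Mapk14 were absent under 2 other scalings. Samples 4 and 5 were chosen with earlier results of these data known, and leaving out the lowest P14 values of a gene by itself moves its difference downward, so these calls describe the other 10 samples and are no independent support for a direction. With all 12 samples, 30.6% of the 366 present genes passed: 16.7% were higher at P28, and 13.9% were lower. The 0 of 5 stands against those shares; no member had an unadjusted p under 0.05 with edgeR, and DESeq2 and limma called 0 as well. The median log2 fold change of the 5 genes was -0.092, against 0.0026 for all 366 genes.

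The samples differed in ways that touch these values. Total counts of the 545 genes lay between 1025196 and 1534665 in P28 samples and between 1137106 and 1316430 in the other 4 P14 samples, with 772723 in P14 sample 4 and 356398 in P14 sample 5. The positive controls, spiked-in targets, had geometric means of 1069 to 1235 in P28 lanes and 542 to 651 in P14 lanes, with no overlap (exact two-sided permutation test, p = 0.00216, the smallest that 6 against 6 samples can give; adjusted over 4 sample measures p = 0.00866). Any effect of how the lanes were run therefore cannot be told apart from age. Relative to the mean of the 6 reference genes, Gapdh was higher and Oaz1 and Polr1b were lower at P28 without overlap (exact permutation p = 0.00216 each, adjusted over the 6 genes p = 0.00433).

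Markers of the labelled cell type were detected throughout. All 8 microglia markers on the panel were present, among them Csf1r, Cx3cr1, Trem2 and Tyrobp, and they summed to 208016 to 244770 scaled counts at P28 and 198696 to 232826 at P14. In P14 samples 4 and 5 that sum was 228536 and 198696. Of 18 T cell markers 9 were present, and Cd3d, Cd3e and Cd4 were among those not present; the 9 summed to 605 to 731 at P28, 725 to 809 in the other P14 samples, and 497 and 418 in P14 samples 4 and 5. Of 9 B cell markers 6 were present, with Pax5 among those not present, and summed to 3511 to 5023 at P28, 3533 to 4706 in the other P14 samples, and 2796 and 2651 in P14 samples 4 and 5. Of 7 neutrophil markers 4 were present, with Camp, S100a8 and S100a9 not present; their sum, 98.2% of it Csf3r, was 4166 to 8248 at P28, 2875 to 3720 in the other P14 samples, and 6688 and 8669 in P14 samples 4 and 5. Of 7 endothelial and mural markers 4 were present and summed to 1882 to 2956 at P28, 2109 to 2702 in the other P14 samples, and 3363 and 3168 in P14 samples 4 and 5. The 5 present of 7 NK cell markers summed to 223 to 326 at P28, 180 to 243 in the other P14 samples, and 116 and 89.04 in P14 samples 4 and 5. The 4 present of 6 dendritic cell markers summed to 1858 to 2368 at P28, 1523 to 1615 in the other P14 samples, and 1064 and 918 in P14 samples 4 and 5. The part of these markers in the results below was not tested, and in sorted bulk RNA fewer cells of a type and less RNA per cell cannot be told apart.

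Of the 6 genes, 5 matched a RefSeq promoter window of GRCm38.p6 by symbol, in 7 windows of 300 bases that run from 250 bases before to 50 after a transcript start. Windows are shown for Map4k1 and Mapk14, both called lower at P28 once P14 samples 4 and 5 were left out, and for Mapk11, the p38 gene that stayed near background. The window of Map4k1 is chr7:28981800-28982099 on the plus strand, that of Mapk14 is chr17:28691092-28691391 on the plus strand, and that of Mapk11 is chr15:89149557-89149856 on the minus strand; for Map4k1 and Mapk14, the most upstream of the listed starts was taken. Each is written 5′ to 3′ on the gene's strand, and capitals mark the GC box GGGCGG or its reverse complement CCGCCC.
Map4k1: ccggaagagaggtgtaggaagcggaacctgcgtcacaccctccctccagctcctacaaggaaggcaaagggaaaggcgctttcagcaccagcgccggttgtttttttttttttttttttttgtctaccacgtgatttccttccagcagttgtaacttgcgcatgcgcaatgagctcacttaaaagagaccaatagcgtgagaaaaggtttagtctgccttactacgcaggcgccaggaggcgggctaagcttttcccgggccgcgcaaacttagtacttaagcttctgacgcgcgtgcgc
Mapk14: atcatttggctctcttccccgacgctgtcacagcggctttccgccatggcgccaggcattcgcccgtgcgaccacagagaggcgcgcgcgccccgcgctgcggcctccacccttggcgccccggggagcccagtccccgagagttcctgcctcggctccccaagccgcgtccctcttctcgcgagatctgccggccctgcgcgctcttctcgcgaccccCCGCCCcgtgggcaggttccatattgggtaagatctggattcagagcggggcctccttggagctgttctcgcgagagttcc
Mapk11: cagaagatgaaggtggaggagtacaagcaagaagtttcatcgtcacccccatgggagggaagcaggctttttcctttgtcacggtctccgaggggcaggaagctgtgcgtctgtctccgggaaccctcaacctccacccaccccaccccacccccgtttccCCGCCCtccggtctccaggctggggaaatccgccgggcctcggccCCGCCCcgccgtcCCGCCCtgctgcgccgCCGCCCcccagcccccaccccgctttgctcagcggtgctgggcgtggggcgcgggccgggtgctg
These windows held 0 GC boxes for Map4k1, 1 for Mapk14 and 4 for Mapk11, on either strand. The windows not shown held 6 for Map4k2, 1 for Mapkapk2 and 0 at the further starts of Map4k1 and Mapk14. Of all 32851 promoter windows, 35.7% held at least 1 GC box. GAGGAA, a form of the PU.1 motif, was in none of the 3 windows shown and in 1 of the 7 searched, that of Mapkapk2. It was in 28.3% of all windows on either strand. Other sequences that ETS factors bind were not searched. TATAAA was in 0 of the 7 and in 13.6% of all, and no matches of the 3 motifs overlapped. A match of letters is a description and not a site of binding.

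**Figure D1:**
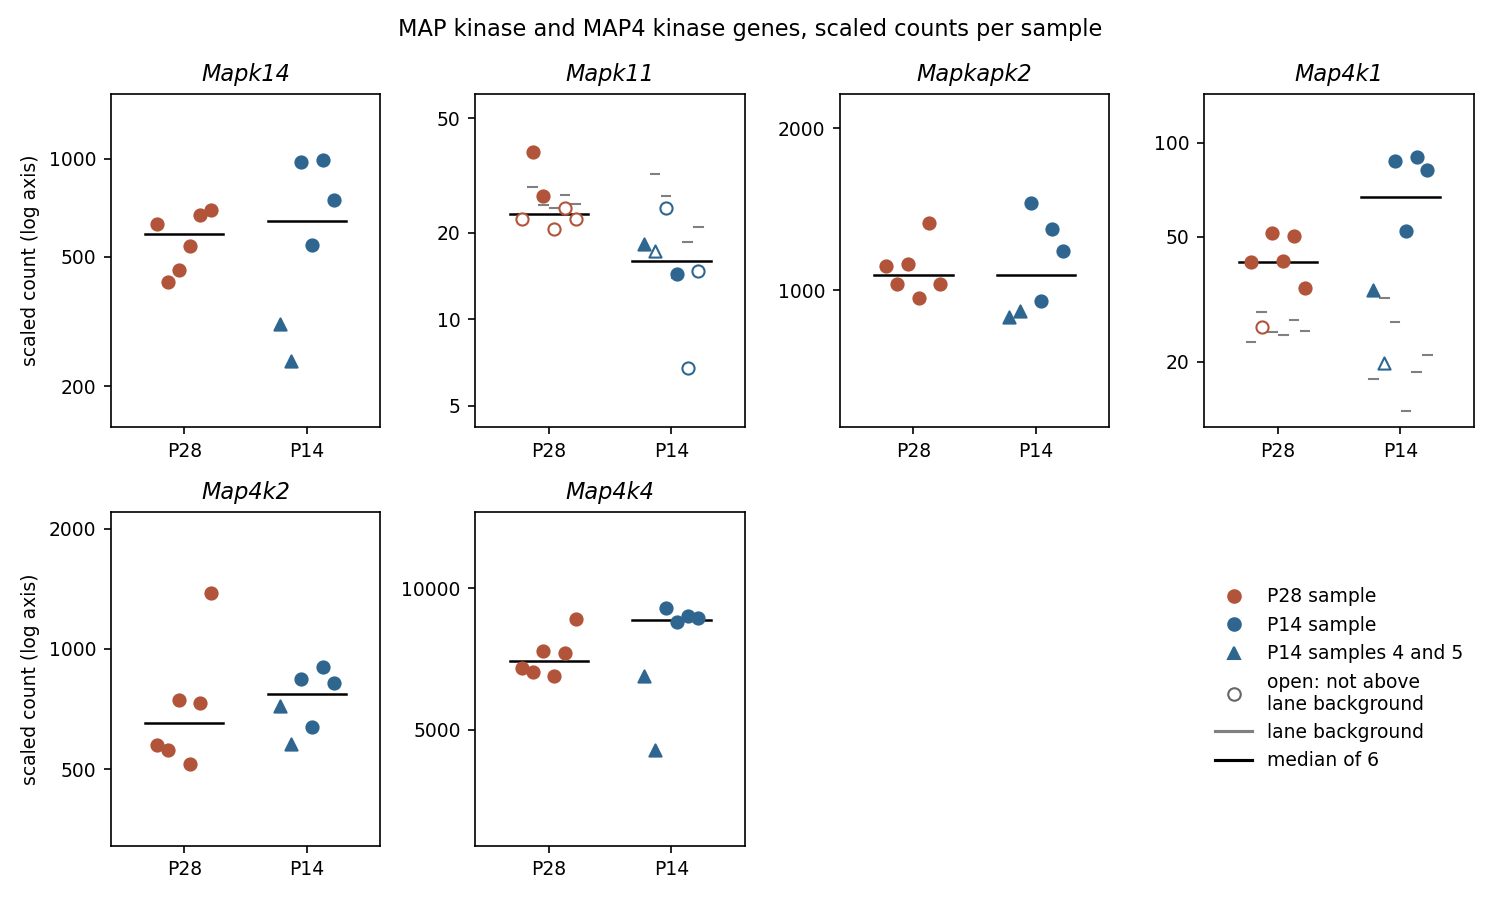
Scaled counts (log axis) of the 6 genes in each sample, P28 left and P14 right, with the median of 6 as a black line, lane background as grey ticks and open symbols where a count did not exceed it. P14 samples 4 and 5, drawn as triangles, are the 2 lowest P14 samples for Mapk14, Mapkapk2, Map4k1 and Map4k4, and P28 sample 138 stands above the other P28 samples for Map4k2 at 1377.

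Mapk14, the p38 form through which microglia and macrophages make much of their TNF and IL-1 beta, had scaled counts of 420, 587 and 699 at P28 (lowest, median and highest) and of 240, 645 and 993 at P14. The P14 samples spread 4.14-fold and enclosed all P28 samples, which spread 1.66-fold. With 12 samples Mapk14 did not pass (mean 570 ± 116 at P28 and 635 ± 325 at P14, SD, n = 6 each; log2 fold change -0.16 ± 0.31, adjusted p = 0.716). Its P14 values were 312 and 240 in samples 4 and 5 and 544 to 993 in the others. Without samples 4 and 5 its log2 fold change was -0.51 ± 0.19 (adjusted p = 0.0422), although its lowest remaining P14 sample, at 544, still lay inside the P28 range. That call was absent when samples 4 and 5 were left out and counts were scaled to all 14 reference genes (-0.37, adjusted p = 0.125) or by the authors' factors, recovered from their scaled values (-0.36, adjusted p = 0.141).

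Mapk11, the other p38 gene on the panel, stayed near the lane background at both ages. Its raw counts were 22 to 34 at P28, against lane thresholds of 24.8 to 33.4, and 7 to 29 at P14, against thresholds of 12.9 to 32.01. It exceeded the threshold in 2 of 6 P28 samples, with 34 and 28 counts in samples 134 and 135, and in 2 of 6 P14 samples, with 14 and 16 counts in samples 4 and 25. Counting error alone gives the 34 counts a 95% Poisson interval of 23.5 to 47.5, and the 14 counts one of 7.65 to 23.5, both of which include the lane threshold. Its scaled counts were 20.5, 23.3 and 38.1 at P28 (lowest, median and highest) and 6.74, 16.0 and 24.3 at P14, and 5 of 6 P14 samples lay below every P28 sample. With 4 of 12 samples above background it was left out of the test over present genes. In the fit of all 545 genes, without the filter, it did not pass (log2 fold change 0.68 ± 0.24, adjusted p = 0.0564), on counts that lie mostly at or under background.

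Mapkapk2, known as MK2, which phosphorylates an mRNA-decay factor and so prolongs the life of cytokine mRNAs such as that of Tnf, had scaled counts of 966, 1069 and 1333 at P28 and of 890, 1069 and 1450 at P14. The medians did not differ beyond the spread, and the P28 samples lay inside the P14 range. The gene did not pass (1097 ± 130 at P28 and 1115 ± 231 at P14; log2 fold change -0.025 ± 0.14, adjusted p = 0.918). P14 samples 4 and 5, at 890 and 915, were only slightly under P14 sample 25, at 953, and without them the difference was -0.16 ± 0.12 (adjusted p = 0.330). The sign was positive when counts were scaled to 14 reference genes (0.053) or by the authors' factors (0.10).

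Among the MAP4 kinases, Map4k1 showed the largest log2 difference of the 5 present genes. It encodes HPK1, a kinase of blood-derived cells best known as a brake on T cell and B cell receptor signalling. Its scaled counts were 25.7, 41.7 and 51.5 at P28 and 19.8, 67.1 and 89.6 at P14. The 4 highest values were all from P14, but P14 samples 4 and 5, at 33.9 and 19.8, overlapped the P28 samples. The call was missed with 12 samples (40.9 ± 9.71 at P28 and 60.7 ± 29.8 at P14; log2 fold change -0.61 ± 0.30, adjusted p = 0.127) and reached without P14 sample 5 alone (-0.76, adjusted p = 0.0290), but not without P14 sample 4 alone (-0.74, adjusted p = 0.0650). Without both, the 4 remaining P14 samples, at 52.2 to 89.6, lay above all P28 samples, the nearest pair being 51.5 at P28 and 52.2 at P14. The log2 fold change of Map4k1 was then -0.92 ± 0.20 (adjusted p = 0.00302), and it was called lower with all 6 further combinations run without those samples (-1.91 to -0.77, adjusted p = 2.83e-06 to 0.00679). Those combinations were chosen after seeing the data. The -1.91 came from positive controls alone, where the median of all present genes was -1.07.

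The counts behind Map4k1 were small. It was above lane background in 5 of 6 samples at each age, and the exceptions were P28 sample 134, with 23 counts against a threshold of 25.7, and P14 sample 5, with 8 counts against 12.9 (95% Poisson intervals 14.6 to 34.5 and 3.45 to 15.8). The sums of T cell, B cell, dendritic cell and NK cell markers were also lowest in P14 samples 4 and 5. Neutrophil sums and endothelial and mural sums were instead higher in those samples than in the other P14 samples. Sums of monocyte and border macrophage markers were 300 and 287 there, inside the 275 to 481 of the other P14 samples. Blnk made up 89.9% of the B cell sum, and Cd83 made up 70.1% of the dendritic cell sum. P14 samples 4 and 5 were the lowest P14 pair for 47% of all present genes. The part of these markers in the level of Map4k1 was not tested.

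Map4k2, a kinase that binds the adaptor Traf2 and feeds the JNK branch, had scaled counts of 514, 653 and 1377 at P28 and of 576, 770.5 and 899 at P14. In P28 sample 138 it reached 1377, where the other 5 P28 samples lay between 514 and 743. The mean was 749 ± 321 at P28 and 749 ± 126 at P14 (SD, n = 6 each), and the log2 fold change was -0.0018 ± 0.22 (adjusted p = 0.996). Without P28 sample 138 it was -0.27 ± 0.15 and did not pass (adjusted p = 0.191). That sample also had the highest P28 sums for the neutrophil list (8248 against 4166 to 5101 in the other P28 samples), for endothelial and mural markers (2956 against 1882 to 2436) and for the list of oligodendrocytes and neurons (10189 against 6698 to 8429, of which 93.6% was App). Its microglia sum was also the highest (244770 against 208016 to 233715), while its B cell sum (3511 against 4303 to 5023) and dendritic cell sum (1858 against 2120 to 2368) were the lowest at P28. The part of these markers in its Map4k2 level was not tested. Map4k2 was the 1 present gene for which P14 samples 4 and 5 were not the 2 lowest of the P14 samples.

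Map4k4, which encodes HGK, a kinase linked to JNK activation by TNF and to cell migration, had scaled counts of 6508, 7019 and 8611 at P28 and of 4541, 8567 and 9077 at P14. P14 samples 4 and 5, at 6502 and 4541, lay below every P28 sample, while the other 4 P14 samples, at 8480 to 9077, overlapped only P28 sample 138, at 8611. The gene did not pass with 12 samples (7196 ± 774 at P28 and 7665 ± 1783 at P14; log2 fold change -0.092 ± 0.15, adjusted p = 0.703). Without P14 samples 4 and 5 it was -0.28 ± 0.088 (adjusted p = 0.0215). With those samples left out, scaling to 14 reference genes gave no call (-0.14, adjusted p = 0.245), nor did the authors' factors (-0.12, adjusted p = 0.328).

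**Figure D2:**
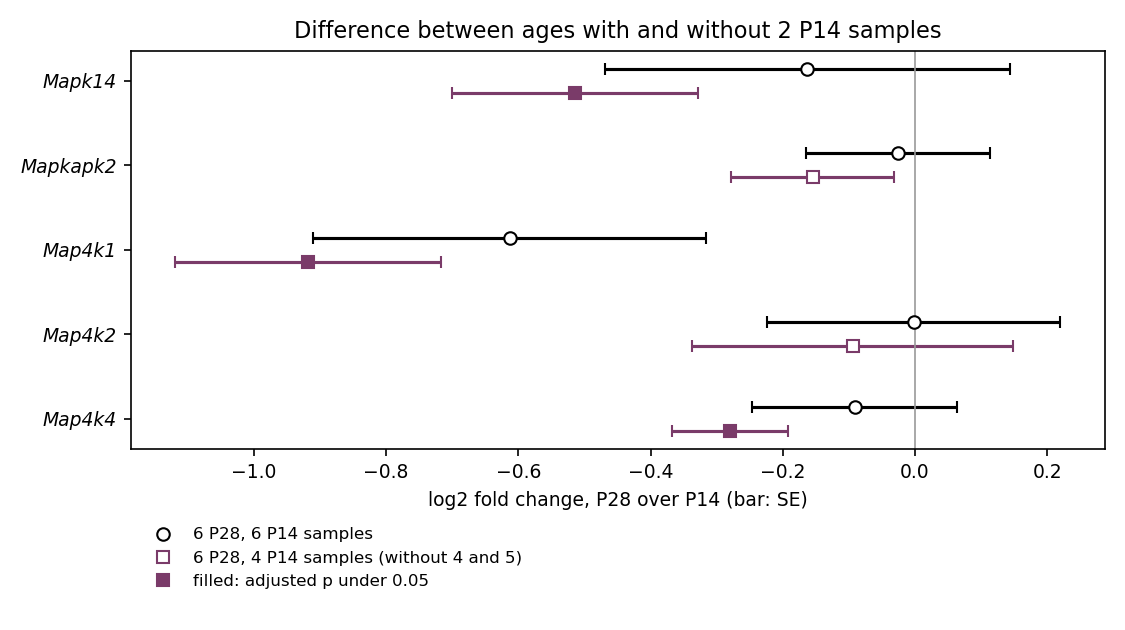
Log2 fold change, P28 over P14, with its SE, for the 5 present genes in the fit of all 12 samples (circles) and in the fit without P14 samples 4 and 5 (squares), filled where the adjusted p was under 0.05. Every square lies left of its circle, and Map4k1 (-0.92), Mapk14 (-0.51) and Map4k4 (-0.28) are filled.

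Leaving out P14 samples 4 and 5 moved the whole panel as well. In that fit, 43.2% of the 366 present genes passed (18.6% were higher at P28, 24.6% lower), and the median of all genes was -0.074 against -0.28 for the 5 members. The 3 of 5 members called lower stand beside that 24.6%. Groups of 6 P28 and 4 P14 samples did not overlap for 1 of the 5 members, Map4k1, and for 31.4% of all present genes, while with all 12 samples this held for 0 of the 5 members and 20.8% of all. The 2 samples were the lowest P14 pair for 47% of all present genes, against 4 of the 5 members. The median spread over the 5 members, highest over lowest sample, was 1.66-fold at P28 and 1.999-fold at P14, beside 1.501-fold and 1.84-fold over all present genes.

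**Figure D3:**
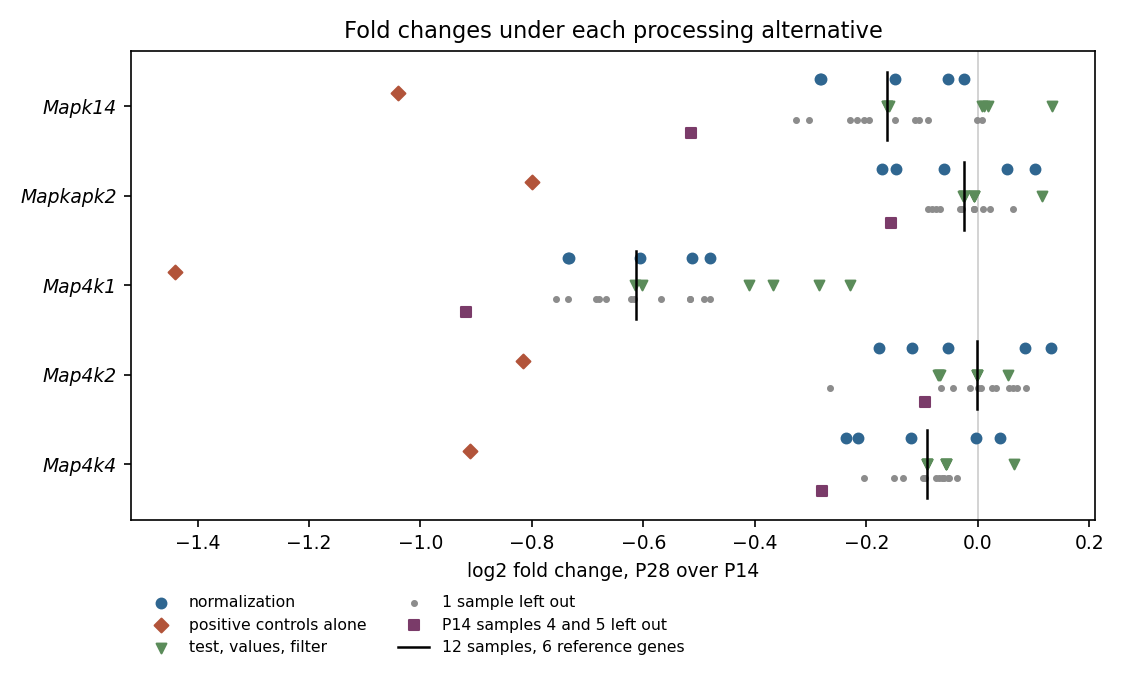
Log2 fold change, P28 over P14, of the 5 present genes under the processing alternatives that change 1 choice: 12 samples with 6 reference genes as a black line, other scalings, positive controls alone, other tests or filters, 1 sample left out, and P14 samples 4 and 5 left out. The points of Map4k1 lie below 0, between -1.44 and -0.23, and the other 4 genes have points on both sides of 0.

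The authors' deposited table gives a fold, P28 over P14, and an unadjusted p-value for the same 5 genes. In the authors' deposited table the fold of Map4k1 was 0.74 (p = 0.2313) and that of Mapk14 was 0.99 (p = 0.9613). For Map4k2, Map4k4 and Mapkapk2 the authors' deposited table gives folds of 1.1, 1.03 and 1.08, with p-values between 0.4144 and 0.7768.

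The values of the members over the samples lay at different distances from each other. Likeness was measured as the root mean square difference of log2 scaled counts, each centred on its gene's mean, over the 12 samples, so that a smaller value is a closer pattern. Map4k4 and Mapkapk2 were the closest pair, at 0.23, and Map4k1 and Map4k2 the most distant, at 0.61. Outside the members, Map4k4 was nearest to the interferon gamma receptor chain Ifngr1 (0.12) and the IL-6 receptor Il6ra (0.13), where the median over all other present genes was 0.38, and Mapkapk2 to the transcription factor Pou2f2 (0.11) and the integrin chain Itgb2 (0.12). Mapk14 was nearest to the tyrosine kinase Abl1 (0.19) and the phosphatase Phlpp1 (0.21). Map4k1 was nearest to the TNF receptor Tnfrsf1b (0.29) and the co-stimulatory ligand Cd86 (0.32), against a median of 0.65. Map4k2 was nearest to the transcription factor Nfatc2 (0.20), which was also highest at P28 in sample 138 (1525 against 682 to 890 in the other P28 samples), and to the cytokine Il16 (0.23). All genes share the samples, the depth and the scale factors, so these values describe the table only.

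The genes around the members on the panel were read from lists. Of 55 listed genes on the panel, 46 were present, and 8 of them were higher and 5 lower at P28 by edgeR's test. Those counts stand beside 16.7% and 13.9% of all present genes.

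Of 16 present adaptors and kinases upstream of the MAP kinases, 2 rose, 3 fell and 11 did not pass, with a median log2 fold change of 0.025. Among all present genes 16.7% were called higher and 13.9% lower. Fyn, a Src-family kinase, fell most, to 309 ± 42.2 scaled counts at P28 against 859 ± 283 at P14 (log2 fold change -1.48 ± 0.20, adjusted p = 6.62e-05), with no overlap. Traf2, the adaptor of TNF receptors that Map4k2 binds, fell to 795 ± 47.8 at P28 against 1200 ± 212 at P14 (-0.60 ± 0.12, adjusted p = 0.00217), and Card9, an adaptor of C-type lectin receptors that relays to p38, fell to 6508 ± 946 at P28 against 8667 ± 825 at P14 (-0.41 ± 0.11, adjusted p = 0.0112). The call of Card9 was lost with the authors' factors (-0.29, adjusted p = 0.0732), in a range of -1.17 to -0.29 over its alternatives. Irak2, a kinase of the Toll-like and IL-1 receptor relay, rose to 8743 ± 1003 at P28 against 6228 ± 991 at P14 (0.49 ± 0.12, adjusted p = 0.00809), and Irak3, an inhibitor of that relay, rose to 81.9 ± 9.91 at P28 against 54.7 ± 8.82 at P14 (0.56 ± 0.14, adjusted p = 0.00553), both turning negative with positive controls alone (-0.31 and -0.20).

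Of 6 present phosphatases and other brakes on the relay, 1 rose and 5 did not pass, beside 16.7% of all present genes called higher and 13.9% lower. Ptpn6, the phosphatase SHP-1 that damps receptor signalling in blood-derived cells, rose to 7803 ± 949 scaled counts at P28 against 5703 ± 318 at P14 (log2 fold change 0.45 ± 0.097, adjusted p = 0.00275), with no overlap, and had a negative sign with positive controls alone (-0.26). Ptpn2, another phosphatase, had a log2 fold change of 0.36 ± 0.15 and Tnfaip3, the enzyme A20 that edits ubiquitin on TNF and Toll-like receptor complexes, had -0.48 ± 0.21 (adjusted p = 0.0923 for both). Ptpn2 was called higher in 5 of 26 alternatives, among them 14 reference genes (0.44, adjusted p = 0.0153), the authors' factors (0.49, adjusted p = 0.0180) and TMM (0.33, adjusted p = 0.0359), and had a negative sign with positive controls alone (-0.44). Tnfaip3 was called lower in 7 of 26, among them TMM (-0.49, adjusted p = 0.0190), total counts (-0.62, adjusted p = 0.0114) and the fit without P14 samples 4 and 5 (-0.73, adjusted p = 0.000853). In that last fit Tollip, an adaptor that damps Toll-like receptor signalling, was also called lower (-0.23, adjusted p = 0.0445; -0.17 with 12 samples); it is named after its values were seen.

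Of 8 present transcription factors that MAP kinases phosphorylate or induce, none passed with edgeR and 6 reference genes. Stat3, which carries IL-6 and IL-10 signals, had a log2 fold change of -0.30 ± 0.13 (adjusted p = 0.0923), but was called lower in 7 of 26 alternatives, among them DESeq2 (-0.30, adjusted p = 0.0481), edgeR with TMM (-0.34, adjusted p = 0.0120) or total counts (-0.45, adjusted p = 0.00577), and the fit without P14 samples 4 and 5 (-0.39, adjusted p = 0.0185). In that last fit Trp53, the p53 gene, named here after its values were seen, was called higher (0.25, adjusted p = 0.0443; -0.0036 with 12 samples). Nfatc2, a factor switched by calcium, had -0.28 ± 0.21 (adjusted p = 0.335). Without P28 sample 138, Nfatc2 fell (-0.50, adjusted p = 0.0335). Ets1, a substrate of MAP kinases, had -0.16 ± 0.19 (adjusted p = 0.573).

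Of 19 listed mRNAs on the panel that p38 and Mapkapk2 are known to stabilise or induce, 11 were present. Of those 11, 5 rose, none fell and 6 did not pass, while 16.7% of all present genes were called higher and 13.9% lower. The median log2 fold change of the 11 was 0.46, against 0.0026 for all present genes. Tnf, the cytokine of that name, rose to 1221 ± 154 scaled counts at P28 against 660 ± 177 at P14 (log2 fold change 0.88 ± 0.17, adjusted p = 0.000953). Its lowest P28 sample, at 1032, lay above its highest P14 sample, at 946. Il1a, an interleukin-1 form, rose to 7356 ± 550 at P28 against 4665 ± 1370 at P14 (0.66 ± 0.17, adjusted p = 0.00817), again without overlap. Il1b, the other main interleukin-1 form, rose to 103 ± 13.7 at P28 against 69.9 ± 13.4 at P14 (0.54 ± 0.15, adjusted p = 0.0120). Its groups came close, with 83.0 in the lowest P28 sample and 82.0 in the highest P14 sample.

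Of the 6 that did not pass, 2 had lower mean values at P28 at an unadjusted p under 0.05, and Nos2 had a higher one. All are named after their values were seen. Nos2 averaged 36.2 ± 6.83 scaled counts at P28 and 26.2 ± 4.78 at P14, with overlap (0.46 ± 0.17, adjusted p = 0.0505). Cxcl10, a chemokine induced by interferons, averaged 43.6 ± 37.8 scaled counts at P28 and 119 ± 159 at P14, with overlap (-1.49 ± 0.65, adjusted p = 0.0989), the largest log2 difference of the 11. It was above lane background in 4 of 6 P28 and 6 of 6 P14 samples. Its highest P14 sample, at 441, stood far above its P14 median of 61.8. Ccl2, a chemokine that attracts monocytes, averaged 207 ± 37.8 at P28 and 303 ± 129 at P14 (-0.55 ± 0.25, adjusted p = 0.102). In the fit that leaves out P14 samples 4 and 5, this list had 4 genes called higher and 1 called lower, which was Cxcl10 (-1.89 ± 0.63, adjusted p = 0.0298).

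The remaining higher calls of that list were less firm. Ccl4, a chemokine that attracts monocytes and T cells, rose to 1813 ± 706 at P28 against 870 ± 478 at P14 (1.06 ± 0.32, adjusted p = 0.0206), with overlap, and lost the call without P28 sample 118 (0.85, adjusted p = 0.0529). Il23a, a subunit of interleukin-23, rose to 34.9 ± 4.11 at P28 against 23.8 ± 7.14 at P14 (0.51 ± 0.18, adjusted p = 0.0463), and was above lane background in 6 of 6 P28 and 4 of 6 P14 samples. Its call was lost in 16 of 25 alternatives. With positive controls alone none of the 11 rose and 2 fell, and Il1b and Il23a had a negative sign (-0.22 each). Il1a also lost its call with total counts (0.47, adjusted p = 0.0740) and TMM (0.56, adjusted p = 0.0568).

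Of 8 present adaptors and partners of MAP4 kinases, 3 fell, none rose and 5 did not pass, with a median log2 fold change of -0.18. Over all present genes, 13.9% were called lower and 16.7% higher. Lck, a Src-family kinase of T cell receptor signalling that also counts among the T cell markers, fell to 49.5 ± 8.05 scaled counts at P28 against 98.9 ± 15.4 at P14 (-1.02 ± 0.15, adjusted p = 0.000128), without overlap. Itgb1, the beta-1 integrin chain, fell to 6928 ± 499 at P28 against 10327 ± 2406 at P14 (-0.58 ± 0.15, adjusted p = 0.00809), with overlap through P14 sample values as low as 6633. The third was Traf2, described above, whose lowest P14 sample, at 824, lay inside the P28 range of 747 to 857. None of 14 further MAP kinase, MAP4 kinase and MAP kinase-activated kinase genes that were listed is on the panel.

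**Figure D4:**
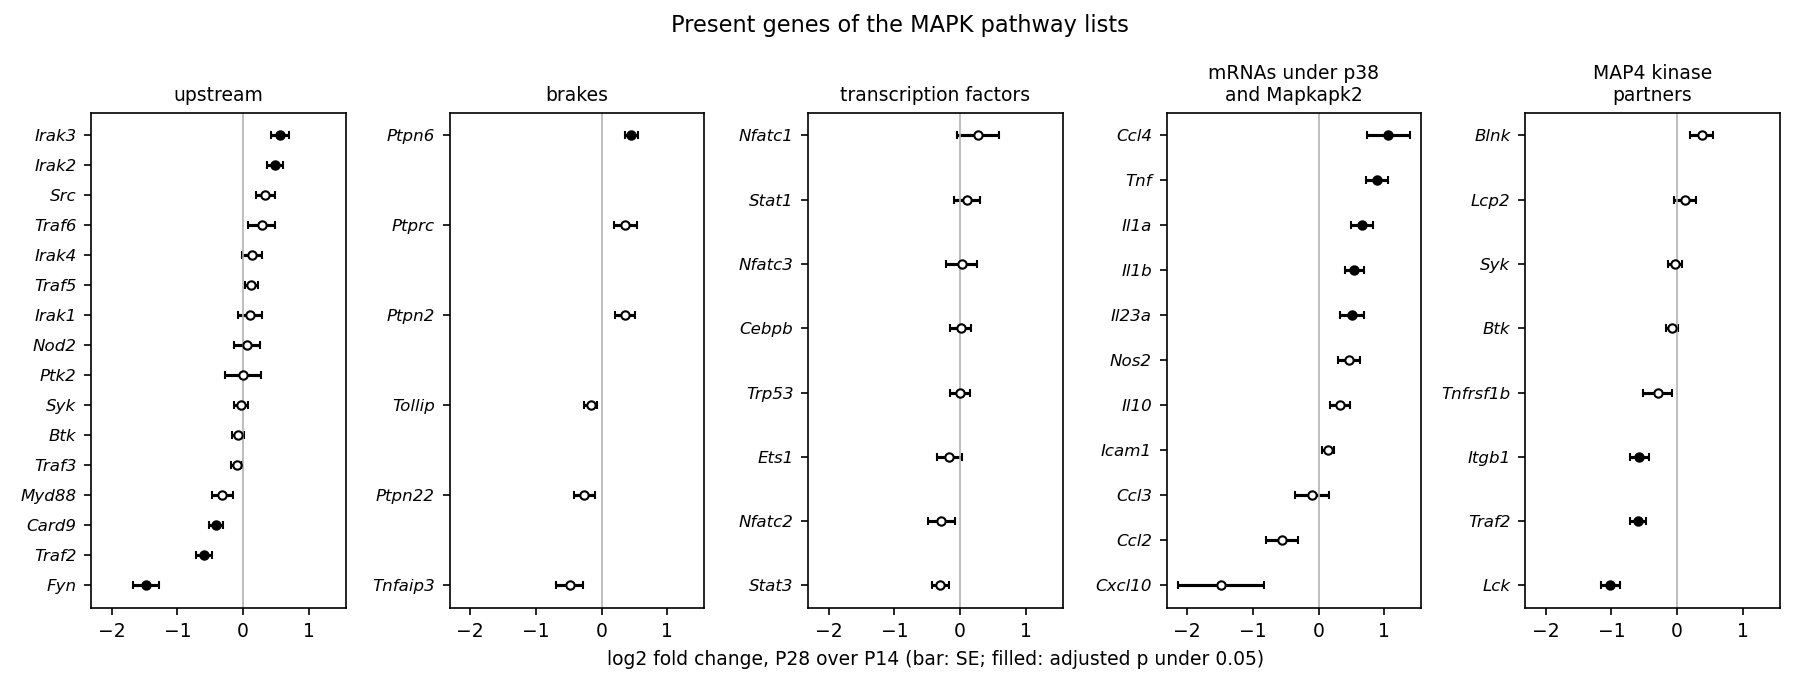
Log2 fold change, P28 over P14, with its SE, for the present genes of the 5 lists around the members, filled where the adjusted p was under 0.05. Among mRNAs under p38 and Mapkapk2 the 5 filled points lie right of 0, and among partners of MAP4 kinases the 3 filled points lie left of it.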

How the data were processed

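Hippocampal microglia of 6 P28 and 6 P14 male pups were hybridised to a panel of 573 probes: 545 endogenous genes, 14 reference genes, 6 positive and 8 negative controls. Per the labels' protocols, 2 ng of RNA went through 5 rounds of PCR, so counting intervals cover counting error only. The authors deposited raw counts and a second table of scaled values, a score. Per the series' design text, the authors' deposited score was scaled to positive controls and reference genes before deposit. The score differed from a constant multiple of each sample's raw counts by at most 1.02 units of the score. The authors also deposited a table with a ratio, P28 over P14, and a t-test p-value of 336 genes, as the authors' deposited results. Which t-test was run is not stated in the labels.

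Raw counts were tested in R 4.3.3 with edgeR 4.0.16 (quasi-likelihood, offset from the geometric mean of Alas1, Gapdh, Oaz1, Polr1b, Sdha and Tbp, age as the sole term) over 366 present genes, with Benjamini-Hochberg adjustment. DESeq2 1.42.0, limma 3.58.1 on log2 values with a pseudocount of 1 or 10, other scalings and filters, each sample left out and P14 samples 4 and 5 left out were alternatives; combining the last with other scalings or DESeq2 was chosen after seeing the data. The code was tested on simulated data. The 6 members described matched RefSeq by accession; 1 gene that the rule takes in is not reported here, although it stayed in the fit.

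The members, lists and the choice of P14 samples 4 and 5 were made with earlier results of these data known. Named genes are all members, the list genes past an FDR of 0.05 (or the 3 with the smallest adjusted p), and the 2 genes most like each member. Litters differed, so p-values cover the spread between animals.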

Additional observations from a re-analysis of the deposited data

Results flagged for a closer look

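Of 86 groups of 6 samples checked, 6 held a sample set apart from the rest by Dixon's criterion, which chance meets in about 1 in 20 groups. P28 sample 138 had 1377 scaled counts of Map4k2, where the other P28 samples had 514 to 743. The same sample had 1525 scaled counts of Nfatc2 against 682 to 890, and the lowest value of Cd86, at 2485 against 3618 to 4231. P28 sample 134 had 38.1 scaled counts of Mapk11, where the others had 20.5 to 26.7, at raw counts near the lane background. P28 sample 118 had 391 scaled counts of Fyn against 277 to 313 in the other P28 samples, all below every P14 sample. P14 sample 4 had 1778 scaled counts of Ccl4 against 436 to 938 in the other P14 samples.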

How the results depend on the processing

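Scaling decides much of what is called. The median of all present genes was 0.0026 with 6 reference genes, 0.18 for the authors' values, 0.13 for their factors, -0.12 if Polr1b was dropped, -0.14 with total counts and -0.74 with positive controls alone. Causes were not tested. Counts near lane background limit Map4k1, which has no value under a filter for background in all 12 samples, and Mapk11. No paired analysis was possible because the 2 ages share no replicate numbers.

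With total counts Map4k1 passed (-0.73), and with positive controls alone Map4k1 (-1.44) and Map4k4 (-0.91) passed, so 1 and 2 members were lower; without P14 samples 4 and 5, 3 were lower, Map4k1 (-0.92), Map4k4 (-0.28) and Mapk14 (-0.51). Signs turned with the authors' values for Map4k2 (0.054), Map4k4 (0.065), Mapk14 (0.13), Mapkapk2 (0.12) and Ets1 (0.021), with all 14 reference genes for Map4k2 (0.084) and Mapkapk2 (0.053), and with the authors' factors for Map4k2 (0.13), Map4k4 (0.041) and Mapkapk2 (0.10). Mapk14 turned with limma at a pseudocount of 1 (0.011) or 10 (0.0073) and after background subtraction (0.019). With positive controls alone Irak3 (-0.20), Irak2 (-0.31), Ptpn6 (-0.26), Ptpn2 (-0.44), Il1b (-0.22) and Il23a (-0.22) turned.

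With P14 samples 4 and 5 left out, Map4k1 passed with 14 reference genes (-0.78), 5 reference genes (-1.04), total counts (-1.0004), positive controls (-1.91), the authors' factors (-0.77) and DESeq2 (-0.92). Map4k4 passed with 5 reference genes (-0.41), total counts (-0.38), positive controls (-1.29) and DESeq2 (-0.28), and Mapk14 likewise (-0.64, -0.60, -1.51 and -0.51). Map4k2 was 0.055 with 14 reference genes, 0.066 with the authors' factors and -1.15, past the threshold, with positive controls, where Mapkapk2 also passed (-1.16). In that last setting the median of all present genes was -1.07, so both lay near the shift of the whole panel.

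Leaving out 1 sample at a time gave -0.76 to -0.48 for Map4k1, -0.27 to 0.086 for Map4k2, -0.20 to -0.037 for Map4k4, -0.33 to 0.0075 for Mapk14 and -0.089 to 0.064 for Mapkapk2, with 0 to 1 members lower, that 1 being Map4k1 without P14 sample 5. Over all present genes it gave 56 to 67 higher and 45 to 61 lower, and over the pathway lists 7 to 9 higher and 5 to 7 lower.

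Of all present genes, 61 were higher and 51 lower. The split was 89 higher and 42 lower with 14 reference genes, 93 and 36 by the authors' factors, 50 and 74 if Polr1b was dropped, 51 and 96 with total counts, and 8 and 128 with positive controls. There were 26 lower with the authors' values, 90 lower without P14 samples 4 and 5, and 32 lower at an FDR of 0.01. Of the pathway lists, 8 were higher and 5 lower; higher were 14 with the authors' values, 13 with 14 reference genes, 0 with positive controls (edgeR), 14 with the authors' factors and 5 at an FDR of 0.01, and lower were 10 without Polr1b, 12 with total counts, 14 with positive controls and 10 without P14 samples 4 and 5.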
